A study of Mus musculus with 24 samples.

Results

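The cytosolic ribosomal protein genes were followed across 24 pulldowns of ribosome-associated RNA from mouse spinal cord. Members were chosen by symbol: Rpl or Rps followed by a number and at most a pair of the letters a, l or x, together with Rplp0, Rplp1, Rplp2, Rpsa and Rpl22l1. This gave 82 of the 38924 listed genes, 51 of the large and 31 of the small subunit. All 82 were in the files, and 78 passed the filter on low counts in the comparisons described here. The untested members were Rpl3l, Rpl10l, Rpl39l and Rps12.

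The small subunit of the ribosome decodes mRNA and the large subunit forms peptide bonds. Their proteins are encoded by separate genes, are needed in balanced amounts, and come from short, abundant mRNAs. Many of these mRNAs begin with a 5′ terminal oligopyrimidine (TOP) tract, a C followed by further C or T bases, through which mTOR signalling controls their translation. Several members have paralogues with restricted expression: Rpl3l is known from heart and skeletal muscle, Rpl10l and Rpl39l from testis. Rpl22l1 is the close paralogue of Rpl22, the large subunit protein that carries the tag in these mice.

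In the RiboTag method, Cre recombinase replaces the last exon of Rpl22 with a copy that ends in an HA tag, and an antibody to HA brings down ribosomes with their mRNA. The study asked how a dominant mutation of Gars, the glycyl-tRNA synthetase gene, alters that mRNA in motor neurons. All mice were 8 weeks old, had the strain background B6.CgxB6.129 and carried the tag allele (Rpl+/-). The groups were C201R with Cre (Rpl+/-;Chat+/-;C201R+/-), wild type with Cre (Rpl+/-;Chat+/-;C201R+/+), C201R without Cre (Rpl+/-;Chat+/+;C201R+/-) and wild type without Cre (Rpl+/-;Chat+/+;C201R+/+), with 6 libraries each. Each library is named by its mouse number; the labels do not say whether any mice were littermates, so p-values measure the spread between these libraries. Cre was driven from the choline acetyltransferase locus, which is active in all cholinergic cells and not only in motor neurons. Pulldowns without Cre hold RNA that came down without a tag. A count per gene cannot tell tagged from untagged Rpl22 mRNA, and fewer cells of a type cannot be told apart from less RNA per cell.

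Library totals were 21.5 ± 4.74 M expected counts (M, mega) for wild type and 18.3 ± 3.30 M for C201R mice with Cre, and 12.5 ± 1.69 M and 11.3 ± 2.38 M without it (SD, n = 6). The 8 measured motor neuron markers summed to 903 to 1681 CPM in wild type with Cre and to 50.4 to 258 without it, and the 8 oligodendrocyte markers to 501 to 1105 CPM with Cre and 4825 to 8715 without it. CPM here is the rounded count divided by the TMM-scaled library total in M, with scaling over all 24 libraries. Libraries stood apart in composition. Of all counts, those assigned to Gm26924, a predicted gene with ribosomal RNA sequence, made up 25.4 ± 14.5% in the mutant and 13.2 ± 8.78% in the wild type pulldowns with Cre. Its 5 highest shares were in the library of wild-type mouse 14701-9 (30.8%), in the 3 C201R libraries of the lower run of library numbers (32.9 to 43.3%) and in a C201R library of the higher run (20.9%). The lower run is called library series 1 here and the higher run library series 2. What sets the runs apart is not labelled; with Cre they hold 3 and 3 C201R libraries against 2 and 4 of wild type.

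Start-site sequence is shown because the TOP tract is a feature for which this gene family is known. Of 28 members described below that have a RefSeq start window, 5 have such a tract at an annotated start; all 5 are printed, with 3 of the others for contrast. Among the 8 called members with a window, Rplp2 alone has the tract at the start. RefSeq promoters (GRCm38.p6) were matched for 62 of the 82 members by symbol. Each window runs from 15 bases before the annotated start to 15 from it, in the direction of transcription, and capitals mark a C at the first transcribed base with at least 4 further C or T bases.
Rplp2, chr7:141447636-141447665, + strand: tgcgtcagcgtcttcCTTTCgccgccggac
Rps10, chr17:27635230-27635259, - strand: gcgccgcgcacgcccCTTCCTTTCCagcct
Rpl38, chr11:114668565-114668594, + strand: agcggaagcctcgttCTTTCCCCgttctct
Rps21, chr2:180257364-180257393, + strand: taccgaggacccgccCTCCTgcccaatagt
Rps27, chr3:90213634-90213663, - strand: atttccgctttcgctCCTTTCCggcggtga
Rps9, chr7:3704026-3704055, + strand: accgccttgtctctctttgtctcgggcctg
Rpl27a, chr7:109519180-109519209, + strand: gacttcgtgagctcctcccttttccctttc
Rpl22l1, chr3:28805493-28805522, + strand: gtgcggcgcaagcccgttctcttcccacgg
Searched on the transcribed strand only, such a run stood exactly at an annotated start in 13 of the 62 matched members (21%) and in 3.01% of the 27025 genes with a RefSeq promoter. Within 10 bases of a start it was found in 62.9% of members and 34.4% of all genes. Rps9, Rpl27a and Rpl22l1 have no run at the annotated first base, though each has one within 10 bases. Rps21 has a further annotated start without a run.

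Per length, the members spanned a wide range of levels. Over the 12 libraries with Cre the 78 tested members had a median of 162 TPM, from 13 TPM for Rpl12, a protein of the stalk base, to 711 TPM for Rpl38. Rpl38 and Rpl41 (670 TPM) led the large subunit, followed by Rpl36al (551 TPM). Rps24 (606 TPM), Rps21 (421 TPM) and Rps15 (393 TPM) led the small subunit. The large subunit members had a median of 193 TPM and the small subunit members 144 TPM. Replicate spread was wide: the median coefficient of variation of the 78 members in CPM was 19.2% in wild type with Cre and 44.9% in C201R with Cre.

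Pseudogenes bear on these levels, since the authors' RSEM counts divide shared reads between near-identical sequences. The files listed 220 pseudogenes named for 53 of the members. For Rpl31, 82.9% of the counts of the gene and its 22 named pseudogenes over all 24 libraries were assigned to the pseudogenes. Over the libraries with Cre the gene itself averaged 24.8 TPM. With the TPM of the pseudogenes added, each per its own length, the mean was 435 TPM, which is not a level of the gene alone. The share of counts in pseudogenes was 83.3% for Rpl10a, 82.1% for Rps6, 73.0% for Rps16, 49.8% for Rps23 and 29.0% for Rpl19. It was 1.36% for Rpl30 and 0.459% for Rps15a. Rps12 was listed at 0 in all 24 libraries while its 21 named pseudogenes held 4627 counts. Low TPM values of these members are therefore uncertain.

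Pulldown with Cre raised most members. In wild type, 59 of 78 were higher and 0 lower (75.6%, against 27.7% of all 14264 genes tested higher and 32.8% lower), with a median log2 fold change of 0.94 against -0.10 for all genes (edgeR quasi-likelihood test, Benjamini-Hochberg adjusted p under 0.05). In C201R, 74 of 78 were higher and 0 lower (94.9%, against 30.5% of 14335 genes higher and 26.3% lower), with a median of 1.62 against 0.06. Mitochondrial ribosomal protein genes rose with Cre to a similar extent. In wild type 58 of 75 were higher and 1 lower (77.3% higher, median 1.37). In C201R 69 of 76 were higher and 1 lower (90.8% higher, median 1.73). Other genes of the members' length also had positive medians with Cre. From 400 to 600 bases of effective length the medians in wild type were 1.07 for members and 0.89 for other genes, and from 600 to 1000 bases 0.80 and 0.73. In C201R they were 1.75 and 1.29, and 1.53 and 1.04. Every library with Cre lay above every library without it for 53 of the 78 members in wild type (67.9%, background 20.6%) and for 64 in C201R (82.1%, background 19.1%). The comparisons share no libraries with each other. Mitochondrial transcripts took 48.3 ± 4.69% of counts in wild type without Cre and 4.98 ± 6.02% with it; their part in the changes was not tested apart from Cre, because the shares of the groups do not overlap. With that share added as a covariate 0 members were called in either genotype (31 and 24 at an unadjusted p under 0.05). That fit called few genes at all, with 0.0351% of all genes higher in wild type and 0.0977% in C201R. With the Gm26924 share added 45 members were called in wild type (57.7%, against 27.0% of all genes higher) and 31 in C201R (39.7%, against 17.5%). With library totals in place of TMM scaling, the medians of all genes moved to 0.84 and 0.64 and 75 and 76 members were called. Of all genes, 48.2% and 39.5% were then called higher.

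The members that rose most with Cre in wild type were Rpl36, Rpl22l1 and Rpl36al. Rpl36, of the large subunit, had 3.64 to 7.47 CPM without Cre (median 6.16) and 20.7 to 37.5 CPM with it (median 30.6), and the groups did not overlap. Its log2 fold change was 2.13 ± 0.21 (SE; edgeR adjusted p = 4.79e-07) in wild type and 1.87 ± 0.27 in C201R. Rpl36al had 12.2 to 30.7 CPM without Cre and 64.3 to 107 CPM with it in wild type, a log2 fold change of 2.04 ± 0.23 (edgeR adjusted p = 1.64e-06), and of 2.29 ± 0.26 in C201R. In C201R the largest changes were those of Rpl38 (2.42 ± 0.30), Rps10 (2.37 ± 0.34) and Rpl19 (2.34 ± 0.22). Rps10 had 9.47 to 14.6 CPM in C201R without Cre and 35 to 182 CPM with it, again without overlap. Rpl22 itself differed by 0.41 ± 0.19 in wild type (edgeR adjusted p = 0.0748, not called) and rose by 0.73 ± 0.24 in C201R (edgeR adjusted p = 0.0163).

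**Figure D1:**
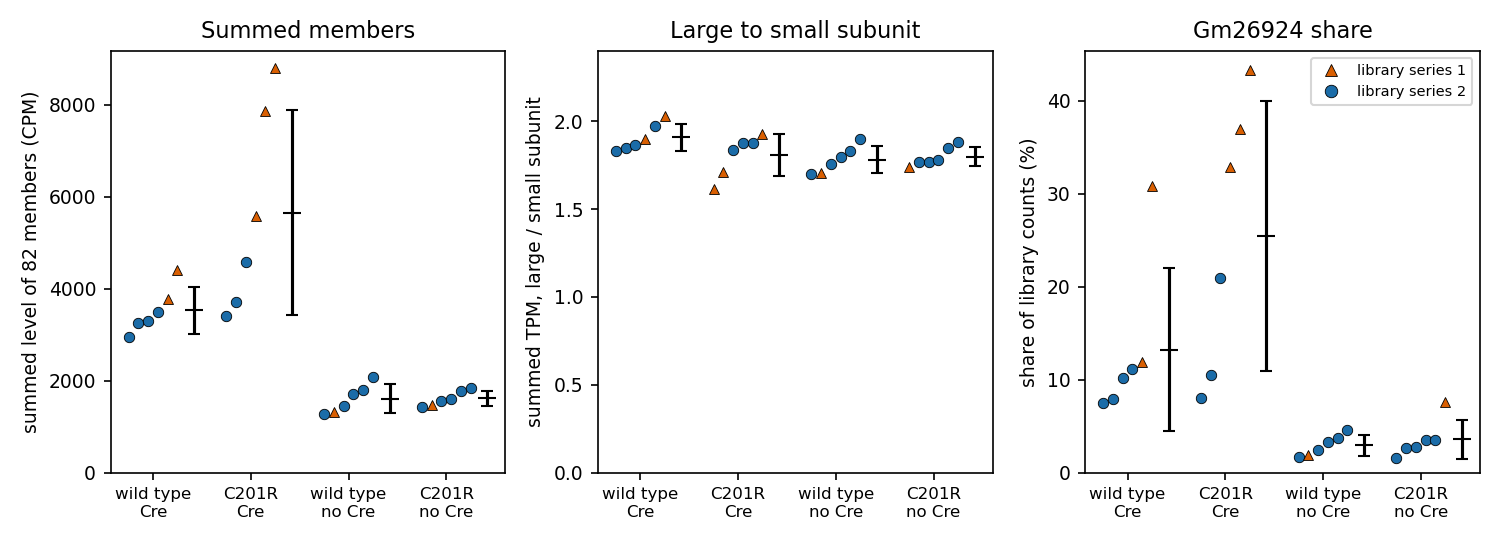
Per library: the summed level of the 82 members in CPM (left), the ratio of summed large to summed small subunit TPM (middle) and the share of counts taken by Gm26924 (right), by group, with triangles for library series 1, circles for series 2 and bars for the mean ± SD of 6 libraries. All libraries with Cre lie above all without it in summed CPM, and 3 series 1 libraries of C201R with Cre lie highest.

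Between genotypes with Cre, the members leaned toward C201R, and the lean differed between library runs. Of 78 members, 9 were called higher and 0 lower in C201R (11.5%, against 2.29% of 14634 genes higher and 1.82% lower). The median log2 fold change was 0.52, against -0.01 for all genes, and 72 of 78 members had positive values, against 49.5% of all genes. An unadjusted p under 0.05 was reached by 51 members (65.4%, against 18.4% of all genes). Only Rpl27a and Rps15a had every C201R library above every wild type library (2.56% of members, background 1.63%), a share near the background. With the prefix of the mouse number as a replicate block in place of the library series term, 1 member was called (Rpl27a, family median 0.31). That was 1.28% of members, against 0.41% of all genes called higher. With library totals 0 members were called, against 0.164% of all genes higher. What the prefixes mark is not labelled, and only some recur across genotypes. With Cre, 14002 and 14702 hold wild type alone and 14003 holds C201R alone. Libraries of these prefixes do not inform the genotype change in the block fit, so it also rests on fewer libraries. The called members were Rpl13a, Rpl19, Rpl27a, Rpl30, Rpl37 and Rplp2 of the large subunit and Rps9, Rps16 and Rps23 of the small. The large subunit had a median of 0.47 with 6 of 48 called, and the small subunit 0.60 with 3 of 30 called.

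Summed over all 82 members, levels were 2948 to 4418 CPM in wild type with Cre (median 3404) and 3403 to 8797 CPM in C201R with Cre (median 5076). The groups overlap, and the 3 highest values are C201R libraries of series 1. Within series 1 the means were 4093 CPM in wild type (n = 2) and 7411 CPM in C201R (n = 3); within series 2 they were 3255 (n = 4) and 3899 CPM (n = 3). The members' share of all counts, which uses no scaling, was 0.489 ± 0.0849% in wild type and 0.572 ± 0.139% in C201R with Cre, and the summed TPM was 14354 ± 3031 and 15930 ± 3827 (SD, n = 6). On these scales, whose totals include Gm26924, the genotypes differed by less than the spread between libraries. With mitochondrial and Gm26924 counts left out of the total, the share with Cre was 0.602 ± 0.0592% in wild type (0.514 to 0.668%). In C201R it was 0.8745 ± 0.254% (0.641 to 1.35%), with overlap between the groups. In summed CPM, libraries with Cre that held more Gm26924 tended to lie higher, but the members' share of all counts did not follow Gm26924. That share was lowest with Cre in C201R mouse 14003-1 (0.352%, Gm26924 43.3%, mitochondrial 15.8%) and wild-type mouse 14701-9 (0.343%, Gm26924 30.8%, mitochondrial 17.1%). It was highest in C201R mouse 14003-4 (0.781%, Gm26924 36.9%, mitochondrial 5.35%). With mitochondrial and Gm26924 counts left out, these libraries had 0.859%, 0.659% and 1.35%. Entered as a covariate, the Gm26924 share left 1 member called (1.28%, against 0.608% of all genes higher) and a median of 0.24. Fitted on series 2 alone the median was 0.29 with 7 members called (8.97%, against 3.59% of all genes higher). On series 1 alone the median was 0.97 with 0 called (39 at an unadjusted p under 0.05). That fit called only 1 of 15668 genes higher. Erythroid markers, 5 genes at 26.0 to 182 CPM in wild type and 22.6 to 491 CPM in C201R with Cre, also had a positive median (1.21, 0 of 5 called); their part in the result was not tested.

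**Figure D2:**
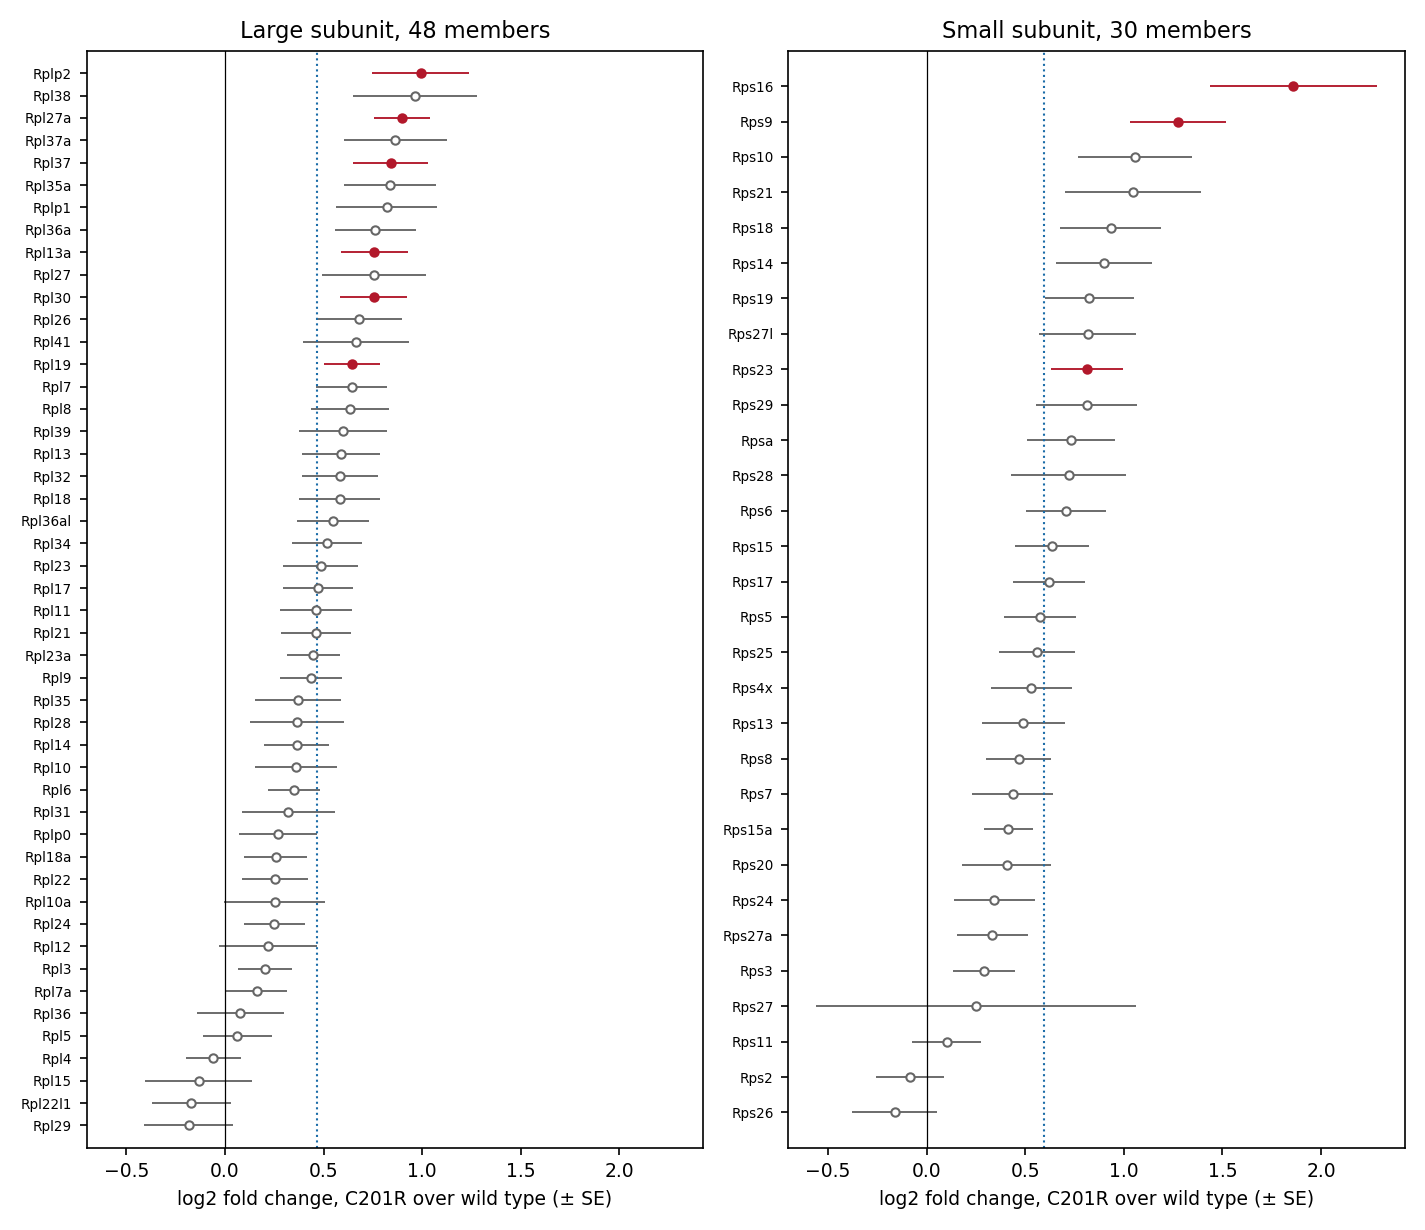
Log2 fold change (C201R over wild type, both with Cre) ± SE for the 48 large and 30 small subunit members tested; filled red points are the 9 called members, and the dotted line is the median of the subunit (0.47 and 0.60). Nearly all points lie right of 0, and the 2 largest values are those of Rps16 and Rps9.

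Rpl27a, a protein of the large subunit core, had the smallest p. Its levels were 24.9 to 37.2 CPM in wild type with Cre (median 33.7) and 44.4 to 79.5 CPM in C201R with Cre (median 66.6). All 6 C201R libraries lay above all 6 of wild type. The log2 fold change was 0.90 ± 0.14 (SE; edgeR adjusted p = 0.00273), and it stayed called in all 12 fits that left out a library, with log2 fold changes of 0.84 to 0.97. Within series 2 Rpl27a differed by 0.82 and within series 1 by 1.04 on the log2 scale. Without Cre its change was -0.30, not called.

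Rps9, which sits at the entry side of the mRNA channel, had 39.6 to 84.7 CPM in wild type (median 43.6) and 66.3 to 293 CPM in C201R (median 109). Only the wild type library of mouse 14701-9, at 84.7 CPM, reached into the C201R range. The log2 fold change of Rps9 was 1.27 ± 0.25 (edgeR adjusted p = 0.0100); it too stayed called in all 12 fits without a library. With the prefix block the change of Rps9 was 0.78 and not called (edgeR adjusted p = 0.0873). With the Gm26924 share as a covariate it was 0.75 and no longer called (edgeR adjusted p = 0.10; over 13 alternatives 0.75 to 1.77).

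Rplp2 forms the acidic stalk of the large subunit, which recruits translation factors, together with Rplp0 and Rplp1. Rplp2 had 37.2 to 129 CPM in wild type (median 43.3) and 51.4 to 244 CPM in C201R (median 130), with overlap through mouse 14701-9. Its log2 fold change was 0.99 ± 0.25 (edgeR adjusted p = 0.0374), and it was called in 5 of the 12 fits without a library and not with the prefix block (0.60; edgeR adjusted p = 0.198). Rplp1 differed by 0.82 ± 0.26 (edgeR adjusted p = 0.0883) and Rplp0 by 0.27 ± 0.20 (edgeR adjusted p = 0.509), so the stalk members did not share a call. Rpsa, the laminin receptor gene of the small subunit, differed by 0.73 ± 0.22 (edgeR adjusted p = 0.0819).

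Rps16 had the largest fitted change, 1.86 ± 0.42 (edgeR adjusted p = 0.0285), on low and scattered levels: 2.50 to 17.4 CPM in wild type and 3.19 to 69.6 CPM in C201R. With its pseudogene counts added the change was 0.88 (edgeR adjusted p = 0.0467). In wild type Rps16 differed with Cre by -0.65 (not called), and by 1.41 with the pseudogene counts added (edgeR adjusted p = 0.000554), so the direction of this member depends on how reads were assigned.

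The other called members ranged from 0.64 ± 0.14 for Rpl19, which reaches across to the small subunit, to 0.84 ± 0.19 for Rpl37. Rpl19 had 51.4 to 71.4 CPM in wild type and 63.7 to 152 CPM in C201R. Rpl13a, Rpl30 and Rps23 differed by 0.76 ± 0.17, 0.76 ± 0.17 and 0.81 ± 0.18. Each of these 5 was called in 7 or 8 of the 12 fits without a library and lost its call with the Gm26924 share added or with the prefix block. Over the whole family the number called was 2 without the library of C201R mouse 14703-4, or of wild type mouse 14002-6 or 14004-3. It was 3 without 14004-6 and 4 without 14702-3 (both wild type), and 16 and 19 without C201R mice 14003-1 and 14701-5. Over all genes tested, the number called higher also moved, from 110 without 14703-4 to 502 without 14003-1.

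**Figure D3:**
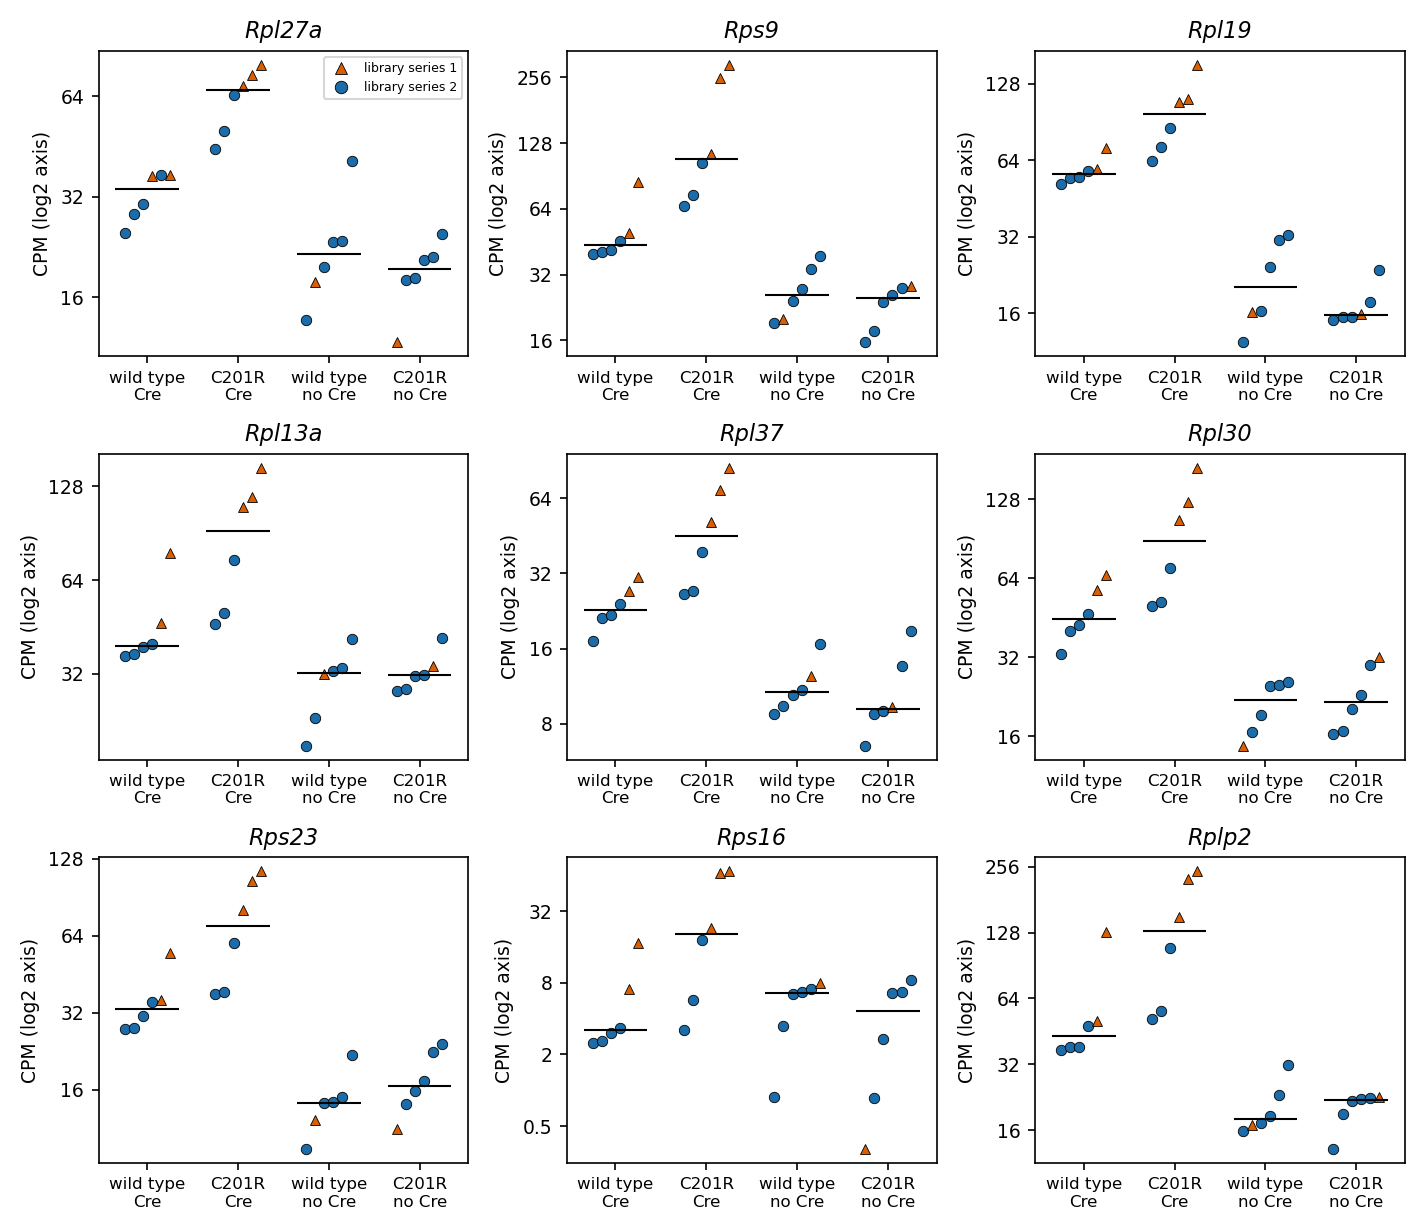
CPM per library (log2 axis) of the 9 members called higher in C201R with Cre, by group, with triangles for library series 1, circles for series 2 and lines at the medians. Triangles of C201R with Cre are the highest points in each panel, and only Rpl27a shows no overlap between the genotypes with Cre.

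The genotype change with Cre went with transcript length. Effective length, the number of positions at which a fragment can start as given in the files, had a median of 558 bases for the members and 2361 bases for all genes tested. The 23 members under 400 bases had a median log2 fold change of 0.66, and the 282 other genes of that length 0.53. From 400 to 600 bases the medians were 0.60 for 23 members and 0.36 for 426 other genes, and from 600 to 1000 bases 0.44 for 21 members and 0.18 for 1144 other genes. From 1000 to 2000 bases they were 0.26 for 10 members and 0.09 for 3979 other genes. In these 4 bins the members' median lay above that of other genes, by less than it lay above the median of all genes. Across the 78 members Spearman's rho with length was -0.39, and across 14634 genes -0.27, given as a description since genes of a library share its depth and fragment sizes. Short members with large values were Rpl38 (0.96 ± 0.31), Rps21 (1.05 ± 0.35) and Rps10 (1.06 ± 0.29), the first of these being the member with the highest TPM; none was called. Without Cre the medians in these length bins lay between -0.07 and 0.05.

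**Figure D4:**
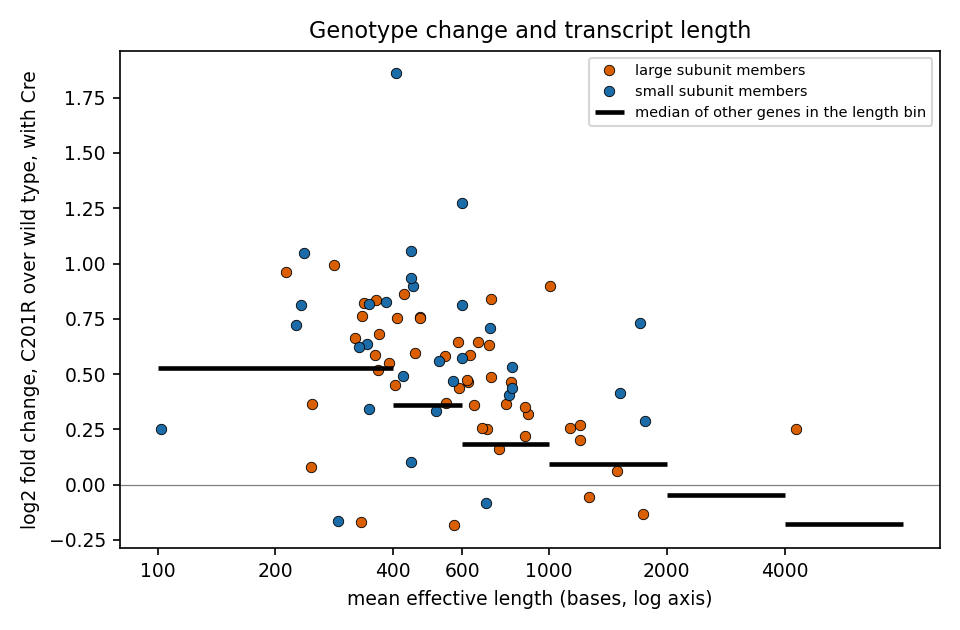
Log2 fold change (C201R over wild type, with Cre) of the 78 members against mean effective length in bases (log axis), with the median of all other genes tested in each length bin as black lines (from 0.53 under 400 bases to -0.18 over 4000). Short genes lie higher in both sets, and most members lie above the line of their bin.

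Rpl22 and its paralogue were compared per length and within each library. Both proteins occupy the same place on the large subunit. A stretch of 120 bases of each coding sequence (GENCODE M21, GRCm38, numbered from the start codon) is printed around their longest identical run, with capitals at the bases that differ. Within the aligned coding sequence, only reads over such bases tell the genes apart.
Rpl22, bases 202 to 321, coding exons within chr4:152325884-152332424, + strand: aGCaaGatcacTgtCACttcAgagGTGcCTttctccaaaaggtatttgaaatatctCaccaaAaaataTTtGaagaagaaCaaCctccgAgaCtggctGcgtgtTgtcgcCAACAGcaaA
Rpl22l1, bases 184 to 303, coding exons within chr3:28805535-28807331, + strand: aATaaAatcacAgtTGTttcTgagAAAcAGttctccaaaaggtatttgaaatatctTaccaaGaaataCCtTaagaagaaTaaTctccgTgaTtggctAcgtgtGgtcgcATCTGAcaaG
Here 89 of the 120 bases are identical. Over the whole coding sequence 259 of 369 aligned bases were identical (70.2%), and the longest identical run was 26 bases.

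Rpl22l1 had larger changes with Cre than Rpl22 in both genotypes, and per length the order of the paralogues turned over. Without Cre, Rpl22l1 had 1.02 to 7.47 CPM in wild type (median 2.77) and 0.877 to 6.44 CPM in C201R (median 2.31). With Cre it had 12 to 28.6 CPM (median 17.1) and 9.98 to 24.9 CPM (median 16.3), with no overlap in either genotype. Its log2 fold change was 2.12 ± 0.38 in wild type (edgeR adjusted p = 0.000173) and 2.33 ± 0.43 in C201R (edgeR adjusted p = 0.000198). Per length, the log2 ratio of Rpl22l1 to Rpl22 (TPM + 0.1) averaged -1.33 ± 0.82 in the wild type and -1.78 ± 0.73 in the mutant in pulldowns without Cre. Pulldowns with Cre averaged 0.88 ± 0.33 in the wild type and 0.18 ± 0.33 in the mutant (SD, n = 6). By TPM, Rpl22 was the higher of the pair in all 12 libraries without Cre, and Rpl22l1 in 11 of the 12 with Cre. By counts, which are not per length, Rpl22 stayed the higher with Cre, at 3935 against 3163 counts in wild type and 3457 against 2132 in C201R. The ratio differed with Cre by 2.21 in wild type and 1.95 in C201R, without overlap (exact two-sided permutation p = 0.00216 each, the smallest that 6 against 6 libraries allow; adjusted over 12 ratio tests 0.0130).

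Between genotypes with Cre the ratio was lower in C201R on the TPM scale and on counts, and passed the test on the TPM scale only. Neither gene was called on its own: Rpl22 differed by 0.25 ± 0.17 (edgeR adjusted p = 0.464) and Rpl22l1 by -0.17 ± 0.20 (edgeR adjusted p = 0.705). The ratio differed by -0.70 (exact permutation p = 0.00866, adjusted 0.0208), with overlap between 2 libraries of wild type and 1 of C201R. Leaving out each library in turn gave -0.79 to -0.60, with adjusted p from 0.0130 to 0.0416. From rounded counts + 0.5 in place of TPM, a setting chosen after seeing the data, the difference was -0.32 (exact permutation p = 0.167, adjusted 0.250). Summed over libraries, Rpl22l1 held 44.6% of the counts of both genes in wild type (95% Clopper-Pearson interval 43.4 to 45.7%) and 38.1% in C201R (36.9 to 39.4%), with intervals for counting error only. The authors' effective length of Rpl22 moves with this: it was 753 ± 96.4 bases in wild type and 590 ± 81.4 bases in C201R with Cre (SD, n = 6), while that of Rpl22l1 was 330 ± 4.85 and 337 ± 5.90 bases. RSEM sets the effective length from the transcripts to which it assigns reads, so the TPM of Rpl22 depends on that split. Series 2 alone gave -0.90 (exact permutation p = 0.0571, adjusted 0.109; 4 against 3 libraries cannot go below 0.0571 in a two-sided test).

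**Figure D5:**
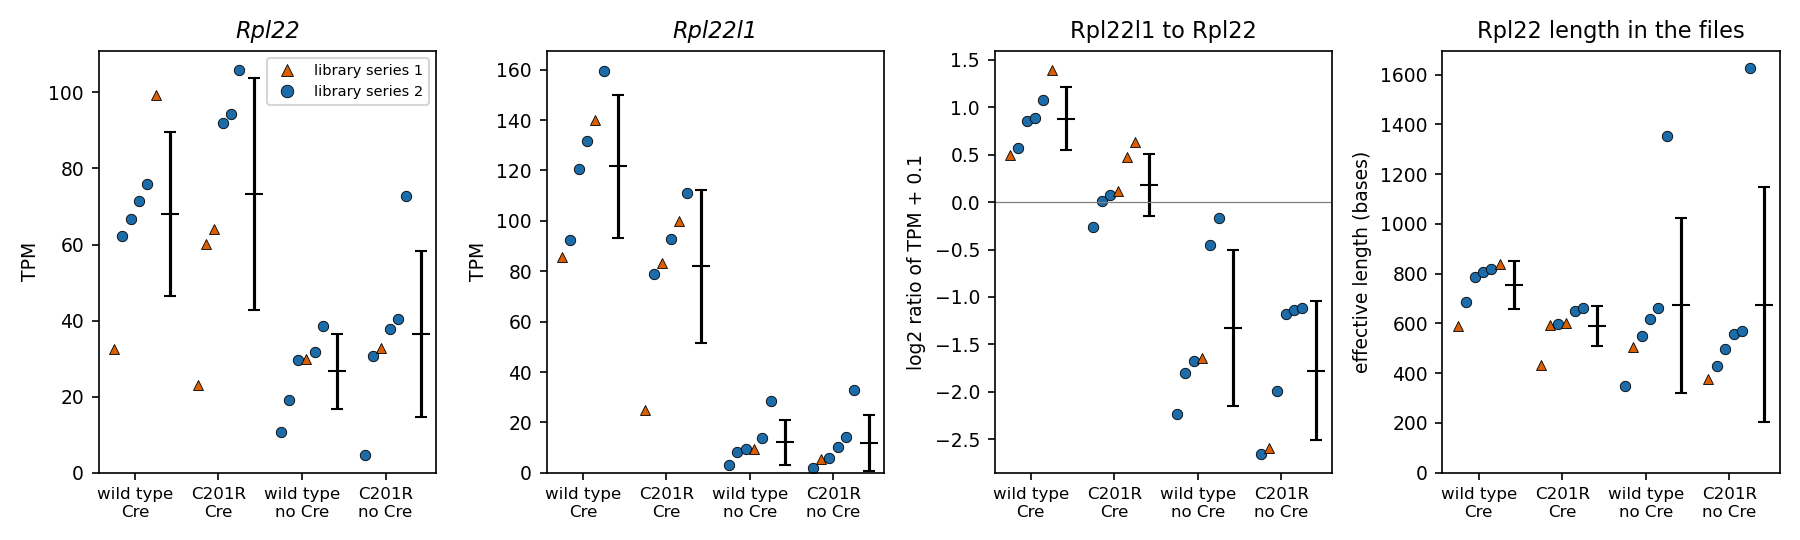
Per library: TPM of Rpl22 and of Rpl22l1, the log2 ratio of Rpl22l1 to Rpl22 (TPM + 0.1) and the effective length of Rpl22 in bases, by group, with triangles for library series 1, circles for series 2 and bars for the mean ± SD of 6 libraries. The ratio lies below 0 in all libraries without Cre and above 0 in 11 of 12 with Cre; the effective length has a mean of 590 bases in C201R and 753 in wild type with Cre.

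The paralogues known from other tissues were near 0 in every group. Rpl39 lines the exit tunnel of the large subunit, and Rpl39l replaces it in male germ cells. Their coding sequences are of equal length, with capitals at the bases that differ.
Rpl39, coding exons within chrX:37082701-37085127, - strand: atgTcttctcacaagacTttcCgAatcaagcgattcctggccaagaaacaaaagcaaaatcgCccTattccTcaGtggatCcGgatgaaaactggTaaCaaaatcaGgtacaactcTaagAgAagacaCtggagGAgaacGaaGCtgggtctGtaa
Rpl39l, coding exon at chr16:10174310-10174465, + strand: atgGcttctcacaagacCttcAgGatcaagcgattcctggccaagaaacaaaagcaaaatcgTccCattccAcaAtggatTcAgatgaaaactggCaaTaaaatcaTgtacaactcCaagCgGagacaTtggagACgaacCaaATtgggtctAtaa
They differ at 23 of 156 bases, and the longest identical run is 38 bases, so a read from this run alone fits both genes. Rpl39l had 8 counts in wild type with Cre against 7455 for Rpl39 (0.107% of both, 95% Clopper-Pearson interval 0.0463 to 0.211%) and 6 against 7897 in C201R with Cre (0.0759%, 0.0279 to 0.165%). Without Cre it had 1 of 963 counts in wild type (0.104%, 0.00263 to 0.577%) and 2 of 764 in C201R. These intervals overlap, and they cover counting error only, since PCR copies are not independent molecules. Rpl39 had 7.36 to 26.8 CPM in wild type without Cre and 28.0 to 52.4 CPM with it, without overlap (log2 fold change 1.28 ± 0.28; edgeR adjusted p = 0.00111).

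Rpl3 shapes the peptidyl transferase centre, and Rpl3l is its muscle paralogue; their coding sequences share 74.4% of aligned bases. Rpl3l had 4 counts in 2 wild type libraries with Cre against 17733 for Rpl3 (0.0226%, 0.00614 to 0.0577%) and 13 counts in 5 C201R libraries against 13808 (0.0941%, 0.0501 to 0.161%). Without Cre it had 11 counts against 3041 in wild type (0.360%, 0.180 to 0.644%) and 20 against 3202 in C201R (0.621%, 0.380 to 0.957%). In both genotypes the intervals with and without Cre do not overlap, but they cover counting error only and not the spread between libraries. The 20 counts of C201R without Cre come from 3 libraries. The log2 ratio of Rpl3l to Rpl3 (TPM + 0.1) differed with Cre by -3.15 in wild type (exact permutation p = 0.00433, adjusted 0.0173) and by -1.86 in C201R (p = 0.0887, adjusted 0.152). With so few counts these ratios rest on the pseudocount and on the rise of Rpl3. The ratio of Rpl39l to Rpl39, in the same way, differed with Cre by -1.75 in wild type (exact permutation p = 0.00866, adjusted 0.0208) and -2.26 in C201R (p = 0.0390, adjusted 0.0779). Rpl10l, in a single coding exon, had 0 counts in wild type with Cre against 5185 of Rpl10, which allows a share of up to 0.0579% taking 3 counts of the total as the limit (upper Clopper-Pearson bound 0.0711%), and 2 in C201R with Cre against 4682.

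Other pairs split differently. Rpl36al, which like Rpl39l and Rpl10l is coded in 1 exon and here shares 87.9% of aligned bases with Rpl36a, held 75% of the pair's counts in wild type and 70.6% in C201R with Cre, and 53.4% and 61.7% without Cre. Between genotypes with Cre, Rpl36a differed by 0.76 ± 0.21 (edgeR adjusted p = 0.0510) and Rpl36al by 0.55 ± 0.18 (edgeR adjusted p = 0.112). Rps27l, known as a target of p53, held 80.7% of the pair's counts against Rps27 in wild type and 90.8% in C201R with Cre. These shares are not per length: the mean effective length was 102 bases for Rps27 and 347 bases for Rps27l. Per length, mean levels over the libraries with Cre were 33.2 TPM for Rps27 and 59.0 TPM for Rps27l. Rps27 was at 0 to 3.90 CPM in every library, and Rps27l had 5.89 to 11.7 CPM in wild type and 7.30 to 28.7 CPM in C201R with Cre (0.82 ± 0.24; edgeR adjusted p = 0.0763). Rps4x, coded on the X chromosome, differed by 0.53 ± 0.21 (edgeR adjusted p = 0.172).

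The balance of the subunits overlapped between genotypes. Summed TPM of the large subunit was 1.91 ± 0.0780 times that of the small subunit in wild type with Cre and 1.81 ± 0.120 times in C201R with Cre, 1.78 ± 0.0773 in wild type and 1.80 ± 0.0547 in C201R without Cre (SD, n = 6). The ranges with Cre overlap, from 1.83 to 2.03 in wild type and from 1.61 to 1.93 in C201R, and the 2 lowest C201R values are from series 1. Taken as the ratio of median member TPM the values were 1.32 ± 0.118, 1.06 ± 0.262, 1.13 ± 0.123 and 1.12 ± 0.121. The sums cover 51 large and 31 small subunit members, whereas the medians do not depend on that number.

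Without Cre the genotypes could not be told apart in this family. Of 78 members 0 were called in either direction (background 0 of 14400 genes), 0 reached an unadjusted p under 0.05, and 0 were called by DESeq2 or limma-voom. The median was -0.0012 with 39 members above 0, and 0 members had all C201R libraries above all of wild type (background 0.118%). The summed level was 1607 ± 318 CPM in wild type and 1615 ± 163 CPM in C201R. The edgeR test of whether the genotype change differs with Cre called 0 of 78 members (background 0.0993% of 16109 genes higher, 0.031% lower). DESeq2 called 2 (2.56%, against 0.521% of all genes higher). With edgeR the median was 0.59, and 29 members had an unadjusted p under 0.05 (37.2%, against 9.08% of all genes). In some length bins the members lay no higher than other genes: the medians were 0.51 and 0.54 under 400 bases, and 0.16 for both from 1000 to 2000 bases. Between these lengths members had 0.71 and 0.62, and other genes 0.42 and 0.28. Rps9 came nearest, at 1.66 ± 0.37 (edgeR adjusted p = 0.0696).

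Genes around the family were read from lists. Of 17 translation genes with TOP mRNAs, 6 were higher and 0 lower in C201R with Cre (35.3%, against 2.29% of 14634 genes higher). Their median was 0.30. Among all genes tested, 1.63% had every C201R library with Cre above every wild type library with Cre. Eef1a1, the elongation factor that brings aminoacyl-tRNA to the ribosome, had 93.2 to 149 CPM in wild type and 180 to 380 CPM in C201R with Cre, without overlap (1.06 ± 0.13; edgeR adjusted p = 0.000300). Unlike the members, Eef1a1 fell with Cre in wild type, from 242 ± 43.1 to 114 ± 24.3 CPM (-1.30 ± 0.17; edgeR adjusted p = 8.37e-06), and was not called in C201R (-0.06 ± 0.20). Hnrnpa1, an RNA-binding protein, also showed no overlap between genotypes with Cre, at 50.2 to 101 and 138 to 245 CPM (1.16 ± 0.18; edgeR adjusted p = 0.00259). Btf3 rose by 0.74 ± 0.12 (edgeR adjusted p = 0.00289). Of 29 ribosome biogenesis genes, 2 were higher (6.90%, against 2.29% of all genes) and 0 lower, with a median of -0.03. These were Rrs1, at 11.4 to 17.1 CPM in wild type and 23.4 to 29.7 CPM in C201R, without overlap (0.87 ± 0.15; edgeR adjusted p = 0.00404), and Ebna1bp2 (0.62 ± 0.15; edgeR adjusted p = 0.0365). Of 76 mitochondrial ribosomal protein genes, 2 were higher (2.63%, near the background of 2.29%) and 0 lower, with a median of 0.20: Mrpl24 (0.60 ± 0.14) and Mrps33 (0.61 ± 0.15; edgeR adjusted p = 0.0297 and 0.0310).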

How the data were processed

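Each of the 24 files held, per gene, expected counts, TPM, FPKM and effective length. Per the submitters' processing notes, the authors used Bowtie2 2.2.0 and RSEM 1.2.12, which divides reads shared by near-identical genes; genome build and annotation are not given in the sources used here. Expected counts deposited by the authors were rounded to whole numbers. TPM and FPKM as deposited were used for levels per length and ratios.

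Each pair of groups was fitted on its 12 libraries, and the interaction on all 24, with edgeR 4.0.16 (R 4.3.3): filterByExpr, TMM, the robust quasi-likelihood test and library series as a term, adjusted over all genes tested (called: adjusted p under 0.05). SE is the log2 fold change over the square root of F. Other tools were DESeq2 1.42.0 and limma-voom (limma 3.58.1). The fit was also run on simulated counts of the libraries with Cre, in which 200 genes were changed. The simulation held no library series effect and no Gm26924 shift, so it cannot show how the calls depend on these. Ratios were compared with exact two-sided permutation tests (scipy 1.17.1). Whole mouse numbers are not shared between groups, so they pair nothing. Some of their prefixes recur, and prefixes entered as a block, in place of the library series term, in an alternative fit. Members, lists and tests were chosen with earlier results of these data known. Named were Rpl22, the paralogues with their parents, stalk proteins and Rpsa, members called between genotypes with Cre (at most 12), the 3 largest called changes per direction in each other comparison, the 3 highest per subunit by TPM, and from other lists up to 3 called genes, or else 2 abundant ones. Biopython 1.88 aligned coding sequences.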

Additional observations from a re-analysis of the deposited data

Results flagged for a closer look

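Among 147 sets of 6 libraries (a named member or ratio in a group), 25 held a library whose gap to the nearest other exceeded the 95% limit of Dixon's test, which chance passes in about 1 of 20 sets. Of these, 11 were the library of wild-type mouse 14701-9 with Cre, whose Gm26924 share was 30.8%. Among wild type libraries with Cre it also had the highest mitochondrial share (17.1%) and the lowest total (13.5 M). It held 56.3 CPM of Rpl36a (the others at most 33.2), 60.4 of Rplp1 (29.0), 129 of Rplp2 (50.6), 172 of Rpsa (82.8), 84.7 of Rps9 (49.7), 78.4 of Rpl13a (46.5), 54.8 of Rps23 (36.0), 17.4 of Rps16 (7.08), 133 of Rpl38 (57.9), 248 of Rpl41 (84.9) and 117 of Rps21 (29.2). Mouse 14003-4 (C201R with Cre) stood above its group with 122 CPM of Rpl39 (the others at most 65.9), 66.3 of Rpl10 (36.1), 58.0 of Rplp0 (36.1) and 163 of Rps15 (98.4), and mouse 14701-5 of that group was alone at 0 CPM of Rps27.

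Without Cre, wild-type mouse 14702-4 held 3.90 CPM of Rps27, 16.2 of Rps27l and 41.1 of Rpl27a, mouse 14702-6 30.5 of Rpl36a, and C201R mouse 14004-8 23.8 of Rpl19. Near 0, a single library had counts of Rpl39l (0.0990 CPM in wild-type mouse 14702-1 and 0.144 CPM in C201R mouse 14003-3) and of Rpl10l (0.0979 CPM in wild-type mouse 14004-4 and 0.0722 CPM in C201R mouse 14003-3).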

How the results depend on the processing

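Between genotypes with Cre, where 9 members were called, the count ranged widely and the median stayed positive under each setting run. It was 10 with RLE scaling, 0 with library totals (median 0.25, against -0.26 for all genes; 11 at an unadjusted p under 0.05), 37 with DESeq2, 16 with limma-voom, 13 without the filter, 2 without the library series term, 1 with a replicate block of the prefixes of mouse numbers and 1 when the share of Gm26924 entered as a covariate. Without mice 14003-1 and 14701-9 it was 20, and in series 2 alone 7. Settings chosen after seeing the data gave 24 with the mitochondrial share as a covariate (30.8%, against 3.89% of all genes higher) and 0 in series 1 alone. The fit on series 1 called only 1 of 15668 genes higher. Leaving out each library gave 2 to 19.

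Without Cre the count was 0 under each setting run. With Cre against without it, the mitochondrial share as a covariate left 0 called in wild type and 0 in C201R (0.0351% and 0.0977% of all genes higher). It reversed Rpl22 (-0.83), Rpl22l1 (-1.02), Rpl10 (-0.23) and Rps27l (-0.54) in C201R and Rps4x (-0.16) in wild type; that share nearly equals Cre here. The Gm26924 share left 31 in C201R (39.7%, against 17.5% of all genes higher). Pseudogene counts reversed Rps16 in wild type (1.41). Leaving out a library gave 53 to 67 in wild type and 70 to 75 in C201R. For the interaction, DESeq2 called 2 (0.521% of all genes higher) and no filter 1 (0.0460%). The fit without mice 14003-1 and 14701-9 called 1 (0.171%), and leaving out a library gave 0 to 1. The cause of these differences was not tested.

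The ratio of Rpl22l1 to Rpl22 between genotypes with Cre was -0.90 in series 2, -0.59 without mice 14003-1 and 14701-9 and -0.32 on counts, none called. In series 2, where few libraries limit the exact test, its differences with Cre (2.11 and 1.56), those of Rpl3l to Rpl3 (-3.02) and of Rpl39l to Rpl39 (-1.70) in wild type lost their calls. In C201R, Rpl3l to Rpl3 (-1.78) and Rpl39l to Rpl39 (-2.59) passed with TPM + 1, and Rpl39l to Rpl39 without the named mice (-2.76). Median TPM gave large to small ratios of 1.32 and 1.06 with Cre and 1.13 and 1.12 without it (wild type, then C201R). Series 1 alone could not be fitted for the other comparisons. Counts near 0 limit Rpl3l, Rpl10l and Rpl39l.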
